A study of Bos taurus with 10 samples.

Results

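The growth hormone receptor gene (GHR, ENSBTAG00000001335) and the insulin-like growth factor 1 gene (IGF1, ENSBTAG00000011082) are 2 of the 27607 gene IDs counted in the liver of late-pregnant dairy cows. They were chosen by ID, by a rule that uses no measured value, though earlier results of these data were known. Both had counts in every library. The deposited table and the gene table used here do not pair these IDs with symbols, so the names GHR and IGF1 come with the choice of IDs and were not checked against the files. The samples were livers of Holstein dairy cattle (Bos taurus), taken 2 weeks ahead of the expected calving date. The labels call 5 libraries over-conditioned, meaning cows that carry excess body fat, and 5 normal-conditioned, and name no treatment and no age for either group. RNA was read by 3' mRNA sequencing, in which a transcript gives reads from its polyadenylated end only. A count then follows the number of transcripts sampled and not their length. Levels of GHR and IGF1 are set side by side on this basis, with the limit that reads from a 3' end outside the gene model are missed and that reads of an overlapping gene could be counted.

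Growth hormone leaves the pituitary gland and acts on the liver through GHR, a cytokine-type receptor at the cell surface that signals through the kinase JAK2 and the transcription factor STAT5B. IGF1, a secreted hormone that promotes growth and feeds back on growth hormone release, is a classical target gene of this signal in hepatocytes, and the liver supplies most of the IGF1 in blood. In dairy cows the hepatic response to growth hormone weakens around calving, when circulating growth hormone is high and IGF1 is low. The question here was whether the transcripts of the receptor and of its target differed with body condition before calving, and whether they followed each other across livers.

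Libraries held between 3892292 and 6737548 counts. The shallowest, over-conditioned replicate 2, resembled the others least, with a mean rank correlation over the genes tested of 0.936 against 0.950 to 0.957 in the other 9, and results without it are given below. The tissue label could not be checked against hepatocyte or other cell type markers, since no symbols are paired with the IDs. In bulk liver RNA, fewer cells that express a gene and less of its RNA per cell cannot be told apart.

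GHR stood at 39.5 CPM (counts per 1000000 counts of the library) or more in every library and was not found to differ between the conditions. In over-conditioned replicates 1 to 5 its level was 72.3, 95.3, 75.8, 65.5 and 39.5 CPM. In normal-conditioned replicates 1 to 5 it was 58.4, 69.96, 60.5, 51.2 and 96.0 CPM. The groups overlapped over nearly their whole range: each had 1 library near 96 CPM, and the lowest level of all was in over-conditioned replicate 5. These levels rest on 266 to 545 GHR counts per library.

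Over-conditioned libraries averaged 69.7 ± 20.2 CPM of GHR and normal-conditioned ones 67.2 ± 17.4 CPM (SD, n = 5 each). The difference of 2.49 CPM was much smaller than the spread within either group (exact permutation test, two-sided, p = 0.841). Under the quasi-likelihood test of edgeR, fitted to all 9162 genes that passed the filter on low counts, the log2 fold of over-conditioned over normal-conditioned libraries was −0.01 (SE 0.21, Benjamini-Hochberg adjusted p = 0.995). The 95% interval of the fold ran from 0.734 to 1.35. The data do not exclude folds within these bounds. The smallest fold that 5 libraries a group could detect was not computed. The sign of this small fold depended on the scaling: without scaling factors it was 0.05, and the difference in mean CPM became −0.16 CPM when TMM-scaled library sizes were used. Without over-conditioned replicate 2 the log2 fold was −0.14 (edgeR adjusted p = 0.924).

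IGF1 stood at a lower level than GHR and varied far more from library to library. In over-conditioned replicates 1 to 5 its level was 3.69, 13.4, 13.1, 22.9 and 4.75 CPM. In normal-conditioned replicates 1 to 5 it was 8.47, 11.8, 4.72, 3.02 and 10.4 CPM. Over-conditioned replicate 4 had the highest level of the 10 and 3 over-conditioned libraries lay above every normal-conditioned one, but the other 2 over-conditioned libraries lay among the 4 lowest of all. IGF1 was counted 16 times in over-conditioned replicate 1 and 119 times in over-conditioned replicate 4, the fewest and the most of any library.

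**Figure D1:**
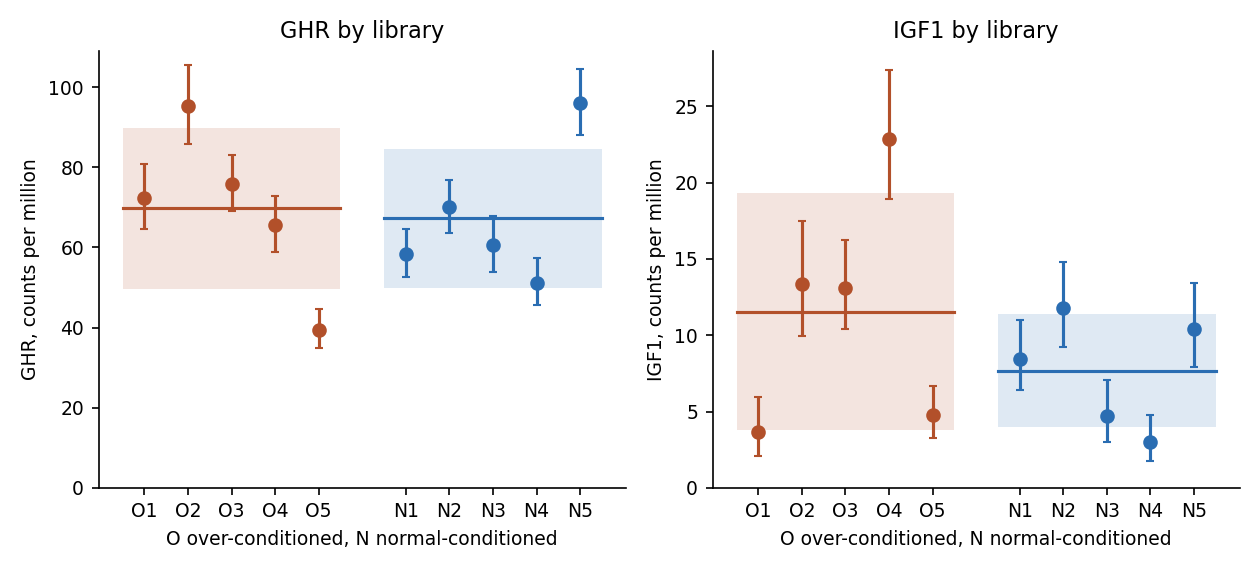
Levels of GHR (left) and IGF1 (right) in CPM in the 5 over-conditioned (O1 to O5) and 5 normal-conditioned (N1 to N5) libraries. Points are libraries, bars are exact 95% Poisson intervals that cover counting error only, and lines with shaded bands are group means ± SD. The bands of the groups overlap for both genes, and IGF1 spreads most widely among the over-conditioned libraries, from 3.69 to 22.9 CPM.

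Over-conditioned livers averaged 11.5 ± 7.77 CPM of IGF1 and normal-conditioned ones 7.68 ± 3.72 CPM (SD, n = 5 each). The difference of 3.87 CPM was smaller than the SD of the over-conditioned libraries and slightly larger than that of the normal-conditioned ones. It did not pass the threshold (two-sided exact permutation p = 0.357). An over-conditioned library was higher than a normal-conditioned one in 18 of the 25 possible pairs. In edgeR the log2 fold was 0.49 (SE 0.44, adjusted p = 0.811). Its 95% interval of 0.738 to 2.69 in fold spans a modest decrease and a large increase, so the interval of IGF1 is much wider than that of GHR. The size of the difference depended on single libraries. Without over-conditioned replicate 4, which had the highest level, the log2 fold was 0.14 (edgeR adjusted p = 0.937). The difference in mean level was then 1.04 CPM (exact permutation p = 0.722). Without over-conditioned replicate 1, which had the second lowest level, the log2 fold was 0.71 (edgeR adjusted p = 0.823). The difference was then 5.83 CPM (exact permutation p = 0.151). Both libraries were named for their IGF1 level, so these p-values do not test the difference. Without over-conditioned replicate 2 the log2 fold was 0.44 (edgeR adjusted p = 0.896).

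Neither GHR nor IGF1 was called different in any of the tools used, which called few genes or none. Of the 9162 genes tested with edgeR, 0 (0%) had an adjusted p under 0.05, and limma-voom also called 0%. DESeq2 called 23 of 7298 genes with an adjusted p, or 0.315%, neither GHR nor IGF1 among them. At an unadjusted edgeR p under 0.05 there were 692 genes, 7.55% of those tested. GHR had an unadjusted p of 0.979 and IGF1 of 0.276, so neither was in that group either. By size of the edgeR fold, 90.7% of tested genes had a smaller change than IGF1 in either direction and 1.59% a smaller one than GHR. The large fold of IGF1 came with a large error: its standard error of 0.44 compares with a median of 0.21 over all genes tested.

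**Figure D2:**
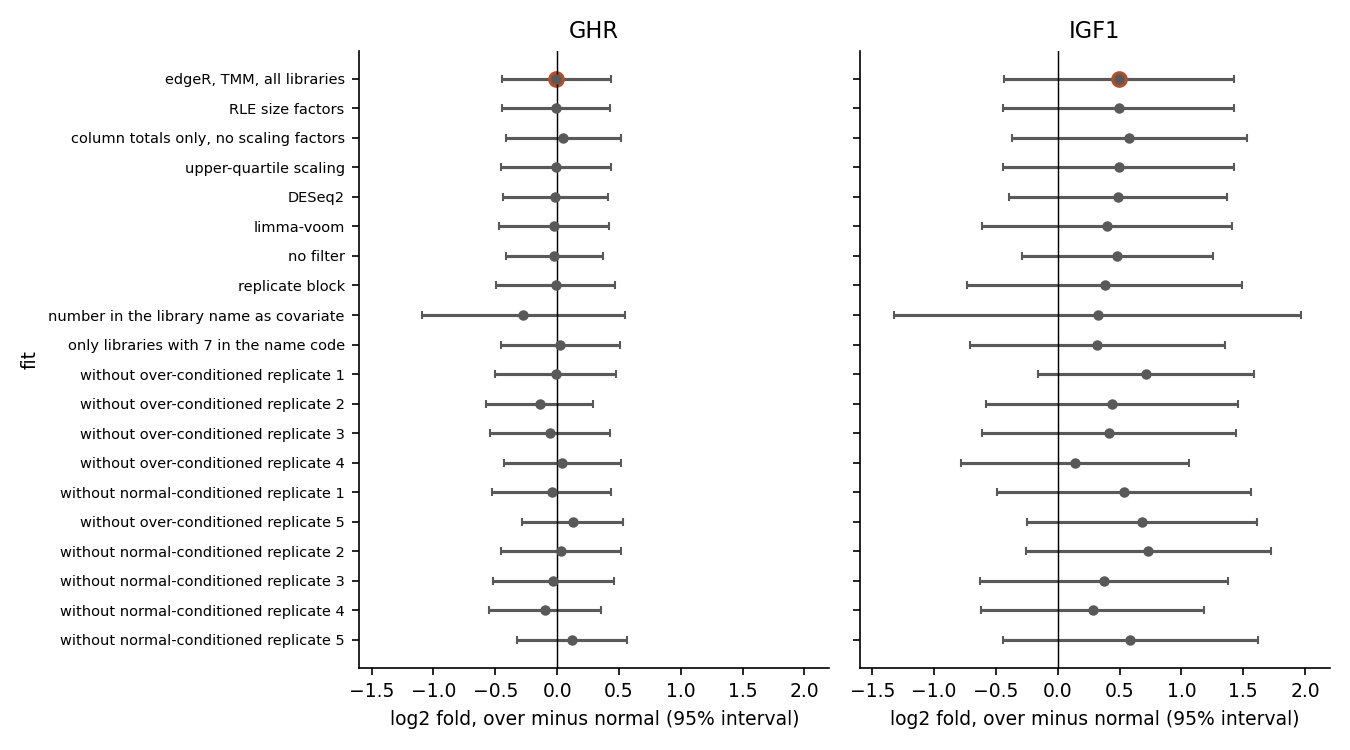
Log2 fold of over-conditioned over normal-conditioned libraries for GHR (left) and IGF1 (right), with 95% intervals, in each fit listed on the vertical axis; the top row, in colour, is edgeR with TMM scaling and all libraries. All intervals of both genes include 0, the GHR estimates lie on both sides of it, and the IGF1 estimates range from 0.14 to 0.73.

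Over all 10 livers, GHR averaged 68.5 CPM and ranked 1426th of the 15973 genes with any count, and IGF1 averaged 9.61 CPM and ranked 5447th. The highest GHR level was 2.43 times the lowest, and the highest IGF1 level 7.57 times the lowest. The coefficient of variation, which is the SD as a percentage of the mean, was 26.1% for GHR and 63.4% for IGF1. Counting error at these depths would give 5.20% and 13.9%, so for both genes most of the spread lay between samples and not in the counting. The labels do not state that each library is a separate animal, so this spread, and every p-value here, refers to these samples.

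IGF1 was also more variable than most genes of its own level. Of 3380 genes with a mean within 2-fold of that of IGF1, 97.6% had a smaller coefficient of variation, and their median was 25.5%. Of 1733 genes near the level of GHR, 80.8% had a smaller one than GHR, with a median of 17.97%. EdgeR's estimate of the biological coefficient of variation, which leaves out counting error and the difference between conditions, was 47.1% for IGF1, 23.9% for GHR and 24.1% in common for all genes. The wide range of IGF1 was present within each condition: the highest level was 6.21 times the lowest among over-conditioned and 3.90 times among normal-conditioned libraries. For GHR these ratios were 2.41 and 1.88. The 95% counting intervals of IGF1 did not overlap in 13 of the 20 pairs of libraries of the same condition and in 14 of the 25 pairs of different condition. For GHR this held in 12 of 20 and 17 of 25 pairs.

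**Figure D3:**
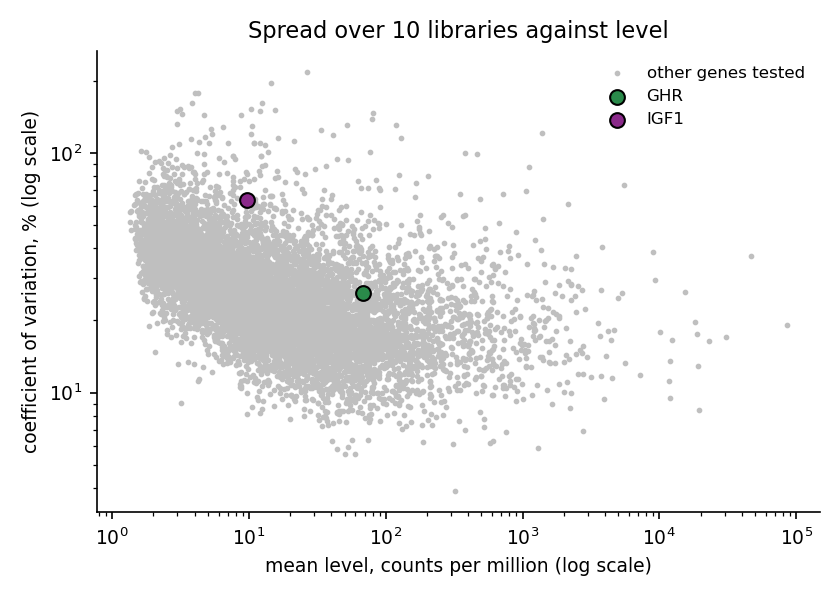
Coefficient of variation over the 10 libraries in percent against mean level in CPM, both on log scales, for the 9162 genes tested (grey) and the 2 genes described. IGF1, at 9.61 CPM and 63.4%, lies high in the cloud at its level, with some genes above it. GHR, at 68.5 CPM and 26.1%, lies in the upper part of the cloud at its own level.

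Receptor and target showed a positive relation across livers that did not pass a test. On log2 CPM, Pearson's r was 0.53 (permutation p = 0.115) and Spearman's rho was 0.50 (permutation p = 0.143) over 10 libraries, both two-sided. Without over-conditioned replicate 5 and normal-conditioned replicate 5, whose GHR levels were farthest from the median, r was 0.51 (exact permutation p = 0.197). With the mean of each condition removed, r was 0.54 (exact permutation within conditions, p = 0.158). No correlation was computed within a condition, since each holds only 5 libraries.

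Several livers paired a high receptor level with a high target level, and others did not. Over-conditioned replicates 2 and 3 and normal-conditioned replicates 2 and 5 combined at least 69.96 CPM of GHR with at least 10.4 CPM of IGF1. Normal-conditioned replicates 3 and 4 and over-conditioned replicate 5 were low for both genes, with at most 60.5 CPM of GHR and 4.75 CPM of IGF1. Normal-conditioned replicate 1 had a GHR level in that low range, 58.4 CPM, with an intermediate IGF1 level of 8.47 CPM. Over-conditioned replicate 1 and over-conditioned replicate 4 departed from this order in opposite directions. The first had the second lowest IGF1 level, 3.69 CPM, at a GHR level of 72.3 CPM, and the other had the highest IGF1 level, 22.9 CPM, at 65.5 CPM of GHR. Without over-conditioned replicate 1 the correlation was 0.64 (exact permutation p = 0.0646), and without over-conditioned replicate 4 it was 0.65 (exact permutation p = 0.0597). Both libraries were named because they lie off the trend, so leaving either out favours a higher r. These p-values therefore do not test the relation. Without any other single library, r ran from 0.44 to 0.54.

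**Figure D4:**
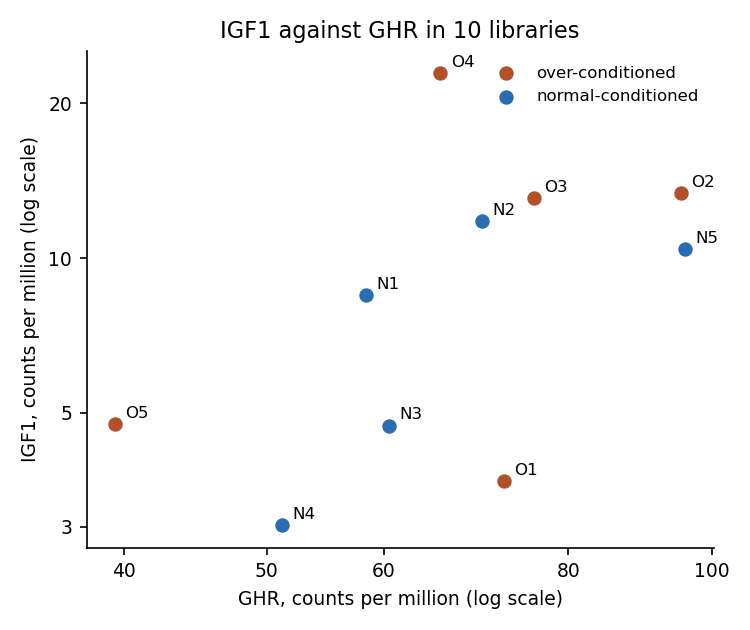
IGF1 against GHR level in CPM, both on log scales, with 1 point per library (O over-conditioned, N normal-conditioned, number of the replicate). The points rise from lower left to upper right with r = 0.53, and O1 and O4 lie farthest below and above this trend.

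The amount of target transcript per receptor transcript was compared directly, since a ratio within a library does not depend on the library total. In over-conditioned replicates 1 to 5 there were 5.10, 14.0, 17.2, 34.9 and 12.0 IGF1 counts per 100 GHR counts. In normal-conditioned replicates 1 to 5 there were 14.5, 16.9, 7.80, 5.90 and 10.8. Both the lowest and the highest ratio were found in over-conditioned livers, and the remaining values of the groups overlapped. The means were 16.7 ± 11.1 and 11.2 ± 4.55 (SD, n = 5 each). Their difference of 5.47 lay between the SDs of the groups and did not pass the threshold (exact permutation test, two-sided, p = 0.389). Without over-conditioned replicate 4, which had the highest ratio, the difference was 0.91 (exact permutation p = 0.762). Without over-conditioned replicate 1, which had the lowest, it was 8.36 (exact permutation p = 0.111). Both libraries were named for their ratio, so these p-values do not test the difference.

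Depth, the number in the library name and the share of counts held by the 10 most abundant genes were examined beside these levels, which makes 6 relations. Depth was included because the lowest GHR level was in the deepest library, over-conditioned replicate 5, and the second highest in the shallowest, over-conditioned replicate 2. The relation of GHR to depth was thus picked from the values it is computed on. Its p-values are descriptive, and adjustment over the 6 relations does not correct for that choice. GHR on log2 CPM had a Pearson r of −0.55 with the logarithm of the total count (permutation p = 0.0992, adjusted p = 0.595 over the 6 relations; Spearman's rho −0.52, permutation p = 0.134). Without the 2 libraries farthest from the median depth, over-conditioned replicates 1 and 2, and with over-conditioned replicate 5 kept, r was −0.33. For IGF1 the same correlation was −0.04 (permutation p = 0.909, adjusted p = 0.909; rho −0.08, permutation p = 0.838), and −0.13 without those libraries. The part of depth in the GHR levels was not tested further.

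The number in the library name runs from 1 to 10, its meaning is not given in the labels, and over-conditioned libraries hold 5 of the 6 lowest numbers. Over all 10 libraries it had an r of −0.24 with IGF1 (permutation p = 0.494, adjusted p = 0.667; rho −0.33, permutation p = 0.351) and of −0.21 with GHR (permutation p = 0.556, adjusted p = 0.667; rho −0.25, permutation p = 0.491). Without the libraries numbered 1 and 10, over-conditioned replicate 1 and normal-conditioned replicate 5, r was −0.78 for IGF1 (exact permutation p = 0.0283, adjusted p = 0.170 over the 6 relations) and −0.63 for GHR (exact permutation p = 0.0932, adjusted p = 0.279). These stronger values thus depend on leaving out those libraries, and neither passed adjustment. With the share of the 10 most abundant genes, r was −0.33 for GHR (permutation p = 0.349; rho −0.19, permutation p = 0.606) and −0.41 for IGF1 (permutation p = 0.245; rho −0.24, permutation p = 0.515), with an adjusted p of 0.667 for each. Without the 2 libraries farthest from the median share, over-conditioned replicate 4 and normal-conditioned replicate 5, these were −0.19 and 0.13. The first of these libraries had the highest IGF1 level of all and the second the highest GHR level.

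The correlation of the pair was set beside that of all other genes as a description. Values were log2(CPM + 1), and genes with a mean of at least 10 CPM were compared, 5352 of them beside GHR. IGF1, whose own mean lies just under that level, had an r of 0.53 with GHR, and 864 genes (16.1%) had a higher one. Seen from IGF1, 377 of 5353 genes (7.04%) had a higher r than GHR. The median r to all genes was 0.10 for GHR and 0.09 for IGF1. All genes share the same 10 libraries and totals, so these correlations are not independent of each other.

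**Figure D5:**
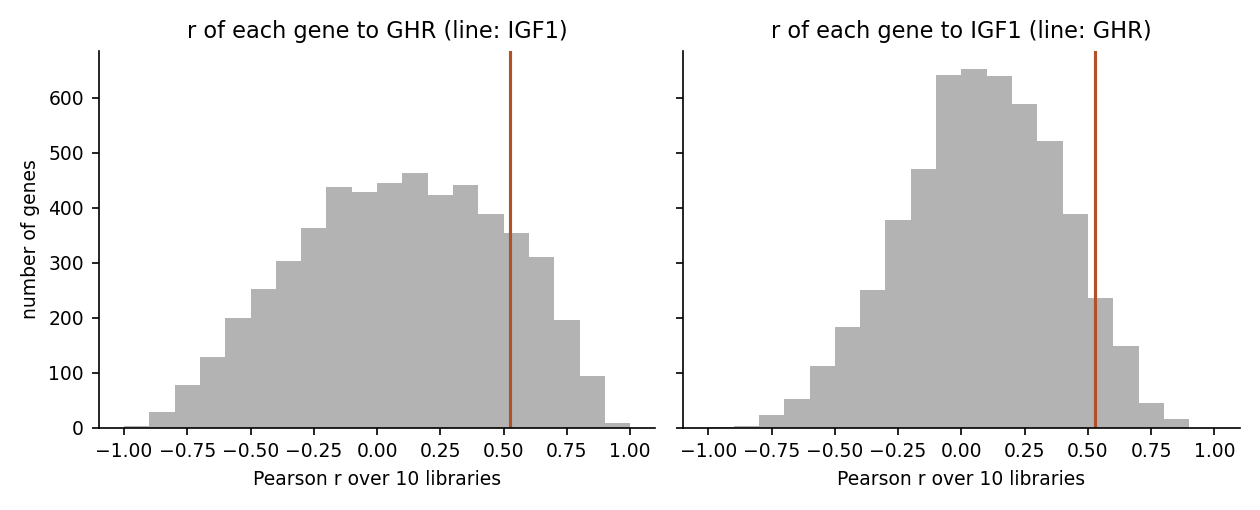
Number of genes by Pearson r over the 10 libraries to GHR (left) and to IGF1 (right), on log2(CPM + 1), for genes with a mean of at least 10 CPM. The vertical line marks the r of 0.53 between GHR and IGF1, which lies in the upper part of both distributions.

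The gene most like GHR across the libraries was ENSBTAG00000040333, with an r of 0.92 over 10 libraries. Its level ran from 198 CPM in over-conditioned replicate 5 to 415 CPM in normal-conditioned replicate 5, the same libraries that held the extremes of GHR. ENSBTAG00000004871 was the most opposite to GHR (r = −0.93), with its highest level, 163 CPM, in over-conditioned replicate 5 and its lowest, 101 CPM, in over-conditioned replicate 2. The gene most like IGF1 was ENSBTAG00000020595 (r = 0.87), which moved over a much narrower range than IGF1, from 17.5 to 27.5 CPM. ENSBTAG00000012989 was the most opposite to IGF1 (r = −0.96) and was lowest, at 9.99 CPM, in over-conditioned replicate 4 and highest, at 21.0 CPM, in over-conditioned replicate 1. Above an r of 0.8 there were 104 genes for GHR and 16 for IGF1, and below −0.8 there were 33 and 6. These 4 genes are the extremes of the correlations of 5352 genes over 10 libraries, and their r values are selected.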

How the data were processed

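The deposited values are raw counts, all whole numbers, for 27607 Ensembl gene IDs in 10 libraries. Per the labels' protocols, QuantSeq forward 3' libraries gave single reads of 75 bases. RSEM 1.3.1, STAR 2.6.0c, cutadapt 1.18 and the builds bosTau9 and ARS-UCD1.2 appear, without roles, in the submitters' processing notes. Whether counting used strand, and how it treated reads matching several genes, is not given in the sources used. In RefSeq's ARS-UCD2.0 annotation, GHR overlaps LOC112443004 and IGF1 overlaps LOC112446717, both long non-coding RNAs, so reads of these could enter the counts. A 3' end outside the gene model would be missed, which can lower a gene's level.

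CPM are counts per 1000000 of the column total, and Poisson intervals cover counting error only. All genes were tested with edgeR 4.0.16 in R 4.3.3 (filterByExpr with a minimum count of 10 and a minimum total of 15, TMM scaling, quasi-likelihood test, Benjamini-Hochberg adjustment, threshold 0.05). Standard errors come from the fold and the F statistic. Alternatives used DESeq2 1.42.0 and limma 3.58.1. The fits were tested on simulated data. Single values were compared by exact permutation over 252 regroupings, and correlations over 10 libraries with 100000 permutations (SciPy 1.17.1, Python 3.11.15).

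The 2 genes, the lists and the tests were chosen with earlier results of these data known. The relations to depth, library number and the most abundant genes and the alternatives for the 4 genes of like or opposite pattern were added after the values were seen. Named genes were GHR, IGF1 and, for each, the gene with the highest and the lowest r, since 0 IDs matched the gene table. For the same reason the planned list of growth hormone and IGF pathway genes and the cell type markers were not analysed here. The promoter and protein sequences were not analysed because no reference sequences were at hand.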

Additional observations from a re-analysis of the deposited data

How the results depend on the processing

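No alternative brought GHR or IGF1 past the threshold. For IGF1, the fold, the level and the ratio to GHR kept their direction in all alternatives tried (19, 16 and 13), and the correlation of the pair stayed positive in 17, from 0.40 to 0.65. The GHR fold, −0.01 on the log2 scale, changed sign without scaling factors (0.050) and ranged from −0.14 to 0.12 without single libraries. It also changed sign in the 8 libraries whose name has a 7 after its letter (0.027), a mark whose meaning the labels do not give. The libraries without this mark are normal-conditioned replicates 4 and 5, so only 3 normal-conditioned libraries remain in that fit. There the IGF1 log2 fold was 0.32 (edgeR adjusted p = 0.877). The GHR difference changed sign with TMM (−0.16 CPM) and RLE (−0.29 CPM) library sizes and ran from −3.91 to 10.0 CPM without single libraries. The IGF1 log2 fold ran from 0.14 to 0.73 and its CPM difference from 1.04 to 5.83 without single libraries, the ratio difference from 0.91 to 8.36, and the correlation from 0.44 to 0.65. The number of genes called was 0 in 17 of 19 alternatives, 23 with DESeq2 and 0 to 1 without single libraries, the 1 appearing without normal-conditioned replicate 1; the cause was not tested. With the replicate block, the log2 fold was −0.01 for GHR (edgeR adjusted p = 0.995) and 0.38 for IGF1 (edgeR adjusted p = 0.926), and 0 genes were called, 502 at an unadjusted p under 0.05 against 692 without it. Pairing by replicate number gave differences that a test over 5 pairs cannot call, since its smallest p is 0.0625. Same-numbered libraries did not deviate together (r from −0.22 to −0.00011), and 0 of 10 had the library of their own number as the nearest of the other condition. With the number in the library name as a covariate, the log2 fold was −0.27 (SE 0.38) for GHR and 0.32 (SE 0.77) for IGF1, and 261 genes had an unadjusted p under 0.05. Over-conditioned libraries hold most of the low numbers, so this number and the condition can hardly be told apart. The r values of the 4 genes of like or opposite pattern kept their sign under TMM and without single libraries. Under TMM, that of ENSBTAG00000004871 to GHR weakened from −0.93 to −0.77. That of ENSBTAG00000040333 to GHR was 0.90, and those of ENSBTAG00000020595 and ENSBTAG00000012989 to IGF1 were 0.84 and −0.90. IGF1 rests on 16 to 119 counts per library, and counting error alone gives a coefficient of variation of 13.9% of its mean.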
